A study of Mus musculus with 41 samples.

Results

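Gpr83, Ecm1, Itm2a, Nrp1 and Folr4 are 5 genes for surface or secreted proteins of regulatory T (Treg) cells, out of 19434 genes in the count table. They were chosen from the values of the Uhrf1 chimera, where some stood higher and others lower in knockout cells. Their levels there are therefore given as a description, and tests were made only in the other experiment. All 5 passed the filter on low counts in both experiments.

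The series holds 41 RNA-seq libraries of sorted mouse T cells in 8 groups, all from mice given as 8 weeks old. In the chimera, Treg cells sorted as CD25hi and Foxp3-YFP+ came from female Uhrf1fl/flFoxp3+/YFP-Cre mice (chimeric knockout, 4 libraries) or Uhrf1+/+Foxp3YFP-Cre/YFP-Cre mice (control, 4 libraries). Foxp3 drives the Cre recombinase in both genotypes and lies on the X chromosome, so the heterozygous knockout females also carry Treg cells without Cre, which the YFP gate leaves out. In the pulse-chase experiment, Uhrf1fl/flFoxp3GFP-CreERT2Rosa26SorCAG-tdTomato mice (iUhrf1fl/fl, called fl/fl here) and Uhrf1+/+Foxp3GFP-CreERT2Rosa26SorCAG-tdTomato mice (iUhrf1+/+, called control) were fed tamoxifen chow for 2 weeks and then standard chow for 4 weeks. Both genotypes carry the Foxp3-driven, tamoxifen-inducible Cre and the tdTomato reporter, and both received tamoxifen. Labeled cells (GFP+ tdTomato+), ex-Foxp3 cells (GFP- tdTomato+, once marked by Foxp3 and now without Foxp3-GFP) and post-tamoxifen cells (GFP+ tdTomato-, Treg cells without the label) were sorted, with 6 fl/fl and 5 control libraries of each. The labels call the libraries biological replicates. They do not tie each one to an animal.

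Treg cells restrain other immune cells and are kept in their state by the transcription factor Foxp3. Uhrf1 recruits the maintenance DNA methyltransferase to newly replicated DNA, so that methylation is copied to the daughter strand. Gpr83 is a G protein-coupled receptor enriched in Treg cells, for which the neuropeptide PEN, released from the Pcsk1n precursor, has been reported as a ligand. Ecm1 is a secreted extracellular matrix glycoprotein made by activated T cells. Itm2a is a type II membrane protein induced during thymocyte selection. Nrp1, neuropilin 1, is a coreceptor for semaphorins and VEGF that marks many thymus-derived Treg cells. Folr4 (now Izumo1r, also Juno or folate receptor 4) is a lipid-anchored member of the folate receptor family that is abundant on Treg cells and, on the egg, is the receptor for the sperm protein Izumo1.

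In mm10 coordinates as deposited, Gpr83 (ENSMUSG00000031932) lies on chromosome 9 at 14860210 to 14870789 on the plus strand, and Folr4 (ENSMUSG00000031933) on chromosome 9 at 14885814 to 14903949 on the minus strand. The pair are neighbours that point towards each other, 15024 bases apart. Ecm1 (ENSMUSG00000028108) lies on chromosome 3 at 95734147 to 95739569, minus strand, Itm2a (ENSMUSG00000031239) on chromosome X at 107397099 to 107403376, minus strand, and Nrp1 (ENSMUSG00000025810) on chromosome 8 at 128359073 to 128505462, plus strand. In the GENCODE vM21 annotation of this build the only genes that overlap them are a microRNA of 63 bases within Ecm1 and one of 80 bases within Nrp1, both on the host's strand.

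The promoter windows of the neighbours Gpr83 and Folr4, and of Ecm1 and Nrp1, are shown because they include the most and the least rich of the 5 in CG, the dinucleotide that carries the methylation Uhrf1 helps to copy. Each window runs from 250 bases before to 50 bases after the gene's start in RefSeq (GRCm38.p6), and is written 5′ to 3′ on the gene's strand with every CG in capitals.
Gpr83, chr9:14859960-14860259, plus strand: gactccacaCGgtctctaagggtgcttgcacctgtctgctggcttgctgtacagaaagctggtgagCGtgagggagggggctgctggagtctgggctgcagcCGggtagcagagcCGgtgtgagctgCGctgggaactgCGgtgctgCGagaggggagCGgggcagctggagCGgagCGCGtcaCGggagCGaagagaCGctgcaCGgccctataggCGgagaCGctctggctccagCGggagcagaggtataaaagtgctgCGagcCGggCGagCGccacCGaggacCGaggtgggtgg
Folr4, chr9:14903718-14904017, minus strand: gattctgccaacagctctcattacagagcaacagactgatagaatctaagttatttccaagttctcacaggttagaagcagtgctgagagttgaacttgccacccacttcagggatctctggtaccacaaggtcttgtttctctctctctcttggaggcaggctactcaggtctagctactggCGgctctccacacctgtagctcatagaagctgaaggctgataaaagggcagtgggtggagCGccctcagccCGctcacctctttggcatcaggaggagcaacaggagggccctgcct
Ecm1, chr3:95739520-95739819, minus strand: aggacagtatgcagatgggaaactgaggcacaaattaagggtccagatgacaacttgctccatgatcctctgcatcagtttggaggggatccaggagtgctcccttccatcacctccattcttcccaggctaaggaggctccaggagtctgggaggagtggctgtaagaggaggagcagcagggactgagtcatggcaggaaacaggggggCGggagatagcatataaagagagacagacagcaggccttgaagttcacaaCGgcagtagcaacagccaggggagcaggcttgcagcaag
Nrp1, chr8:128358823-128359122, plus strand: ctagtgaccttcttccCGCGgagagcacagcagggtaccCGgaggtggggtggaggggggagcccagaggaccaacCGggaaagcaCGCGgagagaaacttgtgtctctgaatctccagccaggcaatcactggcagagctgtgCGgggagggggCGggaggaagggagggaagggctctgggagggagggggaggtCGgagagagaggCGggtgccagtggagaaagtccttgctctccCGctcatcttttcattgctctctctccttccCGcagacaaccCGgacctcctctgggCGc

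The Gpr83 window held 24 CG, and 6563 of all 32851 RefSeq promoter windows held as many or more. The Nrp1 window held 14 (36.3% with as many or more), the Itm2a window 7 (52.1%), the Folr4 window 3 (76.7%) and the Ecm1 window 2 (85.9%), against a median of 7 over all windows. Gpr83 and Ecm1, with the most and the least CG-rich of these windows, were both higher in chimeric knockout cells. Nothing is read from this, because the genes were picked on that contrast. On either strand, the letters TATAAA were found in the Gpr83 and Ecm1 windows, 2 of the 5, and in 13.6% of all windows. The letters TTCNNNGAA, a form bound by STAT factors, and TGTTTAC, a form bound by forkhead factors, were in none of these 5 windows and in 8.3% and 3.65% of all windows. Methylation was not analysed here.

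Total counts ran from 2403189 to 5709702 in the chimera and from 781437 to 3435802 in the pulse-chase libraries. Levels below are counts relative to the library total (CPM), with the total scaled by TMM, a factor that evens out composition between libraries. Foxp3 averaged 61.1 ± 38.2 and 109 ± 29.3 CPM in ex-Foxp3 cells of fl/fl (n = 6) and control mice (n = 5), against 380.1 ± 65.9 and 406 ± 16.5 CPM in the labeled cells of the same groups (SD). The sort is therefore visible in the RNA. Uhrf1 averaged 13.1 ± 6.35 CPM in chimeric knockout and 25.2 ± 4.92 CPM in chimera control cells (SD, n = 4 each; log2 fold change -0.95 ± 0.25 SE, adjusted p = 0.0378 by edgeR). It averaged 46.2 ± 34.3 CPM in labeled fl/fl and 50.6 ± 38.2 CPM in labeled control cells (SD, n = 6 and 5; log2 fold change -0.15 ± 0.60 SE, edgeR adjusted p = 0.961). The count over the whole gene thus did not separate the genotypes in labeled cells, where it varied with the replicate number, as given below. Uhrf1 averaged 16.7 ± 7.74 and 19.4 ± 10.2 CPM in ex-Foxp3 fl/fl and control cells (SD, log2 -0.20 ± 0.68 SE, edgeR adjusted p = 0.976). It was higher in post-tamoxifen fl/fl than control cells (84.9 ± 65.1 against 29.9 ± 18.7 CPM, SD), without passing (log2 1.62 ± 0.64 SE, edgeR adjusted p = 0.113). Which exons are deleted is not given in the sources used here.

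Several libraries stood apart. Post-tamoxifen control 2 and post-tamoxifen fl/fl 3 had 123 and 128 CPM of Foxp3, where the other post-tamoxifen libraries had 287 to 537 CPM. Chimera control 1, from a group described as female, had 430.5 CPM of Y-linked genes. Numbers 2 and 3 of the pulse-chase controls had such reads in all 3 populations (318 to 455 CPM). All fl/fl pulse-chase libraries had 0 CPM of Y-linked genes, so these reads were not balanced between genotypes. The T cell list (Cd3e and 5 others) summed to 2985 to 4154 CPM over all 41 libraries. Myeloid markers (Csf1r and 6 others) summed to 55.0 to 531 CPM in post-tamoxifen fl/fl and 15.5 to 413 CPM in post-tamoxifen control cells, against 7.60 to 27.4 CPM in labeled fl/fl and 13.1 to 17.3 CPM in labeled control cells. B and plasma cell markers reached 552 CPM and dendritic cell markers 193 CPM in post-tamoxifen fl/fl cells, against at most 18.9 and 11.4 CPM in labeled fl/fl cells, where Ms4a1 and Flt3 were at 0 in all 6 libraries. The stromal and endothelial list summed to 126 to 355 CPM, nearly all of it Pecam1 (121 to 175 CPM in labeled fl/fl cells), which T cells also express, while Col3a1 was at 0 in 6 of 6 labeled fl/fl libraries.

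**Figure D1:**
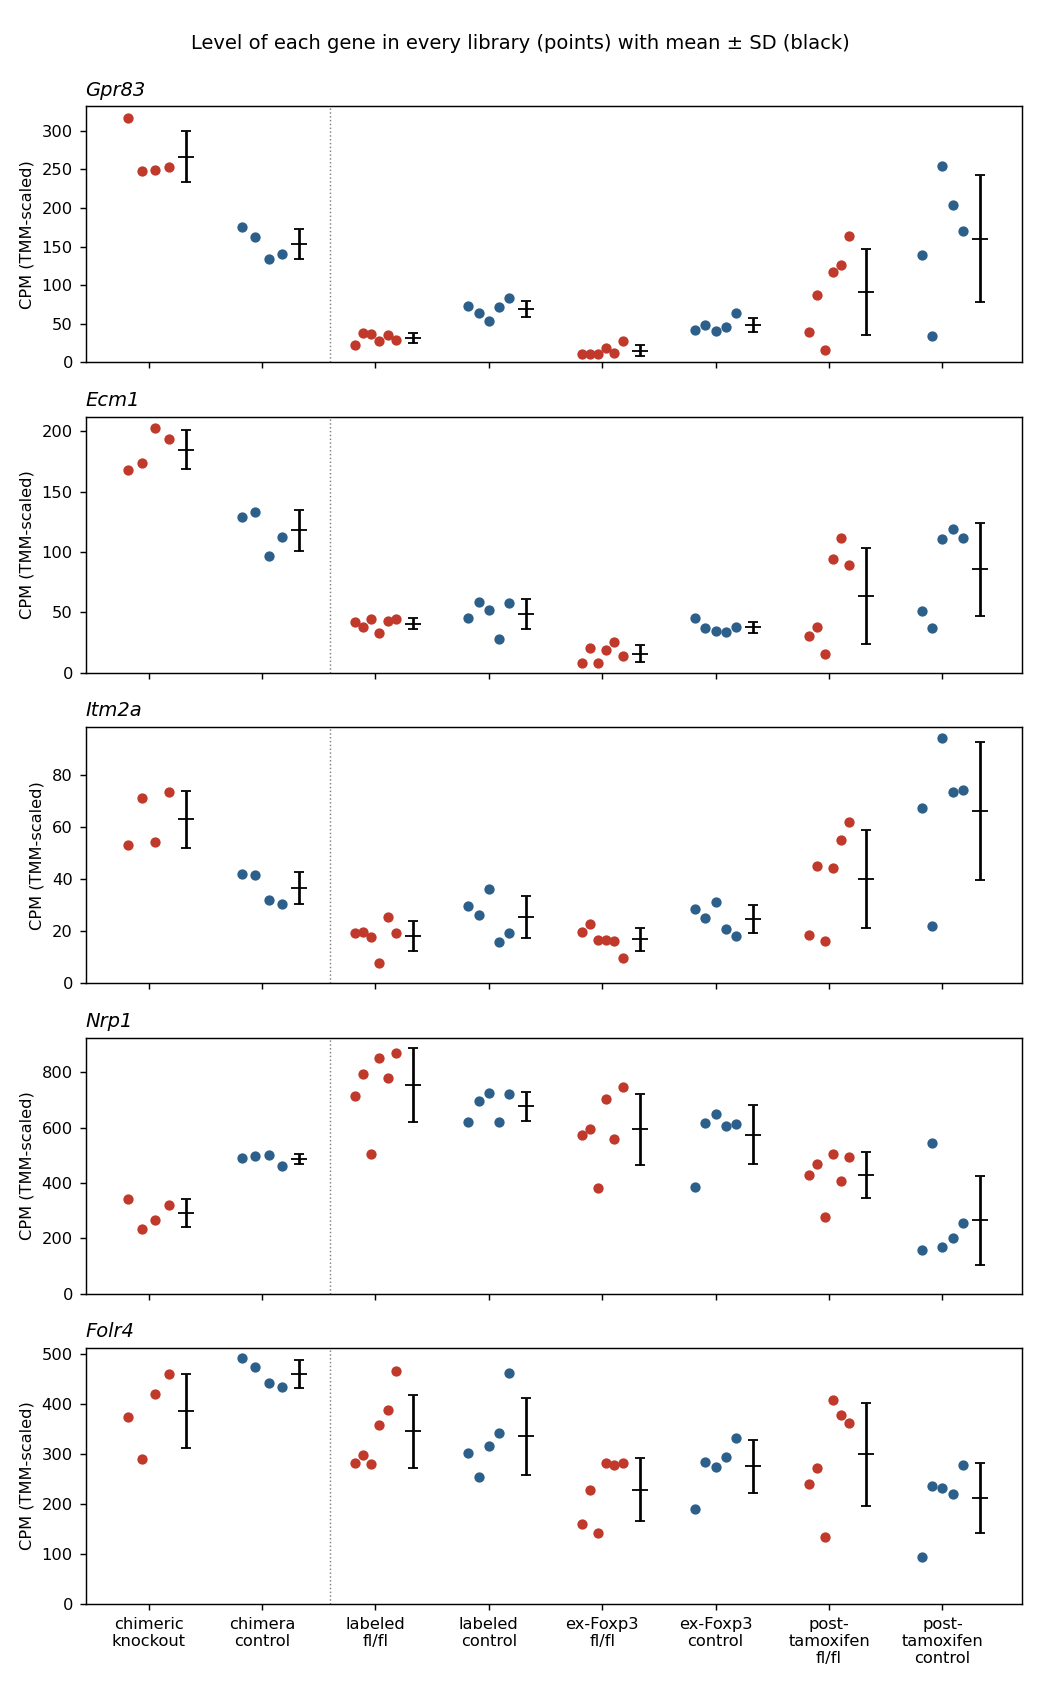
TMM-scaled CPM of each gene (y axes, from 0) in every library of the 8 groups (x axis), with fl/fl or knockout libraries in red and control libraries in blue, and the group mean ± SD as black bars. Gpr83, Ecm1 and Itm2a were higher and Nrp1 lower in chimeric knockout than in chimera control cells, and in the pulse-chase cells Gpr83 was lower in labeled and ex-Foxp3 fl/fl cells than in their controls.

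Per kilobase of exon, which allows levels to be compared between genes, Folr4 was the most abundant of the 5 in chimeric knockout (166 ± 31.5 CPM per kb) and chimera control cells (198 ± 11.8 CPM per kb). Ecm1 stood at 73.2 ± 6.41 CPM per kb in chimeric knockout cells and 46.7 ± 6.65 CPM per kb in chimera control cells. Nrp1 stood at 29.6 ± 5.15 CPM per kb in chimeric knockout and 49.8 ± 1.87 CPM per kb in chimera control cells (all SD, n = 4). Nrp1 thus had the lowest mean of the 5 per kilobase in knockout cells, though Itm2a was near it (36.1 ± 6.26 CPM per kb, SD, n = 4), at about the spread between libraries. In control cells Nrp1 stood beside Ecm1, from which it differed by less than the spread between libraries. In labeled fl/fl cells, Folr4 (149 ± 31.6 CPM per kb) and Nrp1 (76.9 ± 13.7 CPM per kb) were the highest and Gpr83 the lowest (6.14 ± 1.22 CPM per kb; SD, n = 6).

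The chimera sets Treg cells of Uhrf1 knockout mice against those of control mice. Gpr83 had 316, 248, 249 and 253 CPM in the 4 chimeric knockout libraries, against 176, 162, 133 and 141 CPM in the 4 chimera control libraries. Every knockout library stood above every control library, and the log2 fold change was 0.80 ± 0.095 (SE), or 1.74-fold. Ecm1 had 168, 174, 202 and 194 CPM in chimeric knockout and 129, 133, 96.5 and 113 CPM in chimera control cells, a log2 fold change of 0.64 ± 0.10, again without overlap. Itm2a, whose level is the lowest of the 5 in CPM, had 52.9, 71.3, 54.4 and 73.6 CPM in chimeric knockout and 41.9, 41.7, 32.0 and 30.2 CPM in chimera control cells, a log2 fold change of 0.78 ± 0.15 without overlap.

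Nrp1 went the other way, with 342, 232, 265 and 320.2 CPM in chimeric knockout and 488, 499, 501 and 461 CPM in chimera control cells. All 4 knockout libraries lay below all 4 control libraries, and the log2 fold change was -0.75 ± 0.093. Folr4 had 373, 289.7, 420.1 and 459.9 CPM in chimeric knockout and 492, 472, 441 and 433 CPM in chimera control cells, a log2 fold change of -0.26 ± 0.11. The Folr4 groups overlapped, since knockout 4 stood above controls 3 and 4. Knockout 4 was also the knockout library with Uhrf1 in the control range, and without it the Folr4 log2 fold change was -0.36. Groups did not overlap for 4 of the 5 genes, where 8.13% of all 9569 genes tested in the chimera had groups without overlap and 2.41% passed an adjusted p of 0.05 in either direction. Nothing is read from this count, because these genes were picked on this contrast. Ranked by the size of the log2 fold change among all genes tested, Gpr83 was number 356 and Folr4 number 2422. Without chimera control 1, the library with Y-linked reads, the log2 fold changes were 0.87 for Gpr83, 0.68 for Ecm1, 0.86 for the X-linked Itm2a, -0.75 for Nrp1 and -0.22 for Folr4. B and plasma cell markers summed to 7.62 to 15.8 CPM in chimeric knockout and 5.44 to 68.1 CPM in chimera control cells, and without controls 3 and 4 the log2 fold changes ran from -0.76 for Nrp1 to 0.66 for Gpr83.

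In the pulse-chase cells the question is whether tamoxifen-induced removal of Uhrf1 from Foxp3+ cells changes them, and here the genes were tested. In labeled cells, which still had Foxp3, Gpr83 had 21.9 CPM in the lowest, 32.4 CPM at the median and 37.4 CPM in the highest of 6 fl/fl libraries, against 72.8, 63.6, 54.1, 71.6 and 82.9 CPM in the 5 control libraries. No fl/fl library reached the lowest control library, and the fold change was 2.16-fold lower in fl/fl (log2 -1.11 ± 0.43 SE, edgeR adjusted p = 0.417 over all genes). Ecm1 (40.7 ± 4.43 against 48.5 ± 12.5 CPM), Itm2a (18.2 ± 5.84 against 25.4 ± 8.15 CPM), Nrp1 (753 ± 134 against 678 ± 52.8 CPM) and Folr4 (345 ± 73.3 against 335 ± 77.2 CPM) overlapped between fl/fl and control libraries (SD, n = 6 and 5), with edgeR adjusted p from 0.726 to 0.964. By edgeR 0 of the 5 genes passed in labeled cells, where 0.0101% of 9921 genes passed, and 1 of 5 had an unadjusted p under 0.05, as did 934 of the 9921 genes. The groups did not overlap for 1 of the 5, against 1.45% of all genes. Fitted on the labeled groups only, so that the other populations do not enter the spread, Gpr83 had an edgeR adjusted p of 0.00114 at a log2 fold change of -1.11. Over 20 alternatives, among them the fit without control numbers 2 and 3 (Y-linked reads), the Gpr83 log2 value ran from -1.30 to -0.97.

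In ex-Foxp3 cells, which had lost Foxp3-GFP but kept some Foxp3 RNA, Gpr83 was at 10.5 CPM in the lowest, 11.5 CPM at the median and 27.6 CPM in the highest of 6 fl/fl libraries, against 42.4, 48.5, 40.9, 45.9 and 63.4 CPM in the control libraries. The groups did not overlap and the level in fl/fl was 3.17-fold lower (log2 -1.66 ± 0.45 SE, edgeR adjusted p = 0.123). Ecm1, the secreted matrix protein, behaved alike, with 8.04 CPM in the lowest, 16.4 CPM at the median and 25.9 CPM in the highest fl/fl library, against 45.6, 36.8, 34.5, 33.4 and 37.5 CPM in the control libraries. It too did not overlap and was 2.35-fold lower in fl/fl (log2 -1.23 ± 0.40 SE, edgeR adjusted p = 0.211). Over 20 alternatives, among them the fit without control numbers 2 and 3, log2 values ran from -2.02 to -1.50 for Gpr83 and -1.66 to -0.88 for Ecm1. Itm2a averaged 16.9 ± 4.40 CPM in fl/fl and 24.7 ± 5.35 CPM in control, Nrp1 593 ± 128 and 574 ± 107 CPM, and Folr4 228 ± 63.5 and 275 ± 52.4 CPM (SD, n = 6 and 5), all with overlap and edgeR adjusted p from 0.696 to 0.983. By edgeR 0 of the 5 genes passed, where 0.181% of all genes did, and 2 of 5 had an unadjusted p under 0.05, as did 877 of 9921 genes. Groups did not overlap for 2 of the 5, against 2.22% of all genes. The call depended on the test: Gpr83 had an adjusted p of 0.0198 by DESeq2, and in an edgeR fit of these groups alone Gpr83 had 0.000345 and Ecm1 0.00947. Foxp3 itself was lower in ex-Foxp3 fl/fl than control cells by log2 -0.82 ± 0.38 (edgeR adjusted p = 0.521), and its part in the Gpr83 and Ecm1 values was not tested.

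In post-tamoxifen cells, which carry no tdTomato label, Nrp1 had 277 CPM in the lowest, 450.0 CPM at the median and 503 CPM in the highest fl/fl library, against 159, 545, 167, 199.8 and 255 CPM in the control libraries. All fl/fl libraries exceeded the control libraries other than control 2, and the log2 fold change was 0.68 ± 0.24 (SE, edgeR adjusted p = 0.0764). Gpr83 ranged from 15.6 to 163 CPM in fl/fl libraries and had 139, 33.8, 254, 203 and 170.3 CPM in control libraries (log2 -0.81 ± 0.39 SE, edgeR adjusted p = 0.198). Ecm1 averaged 63.3 ± 39.8 CPM in fl/fl and 85.7 ± 38.7 CPM in control, Itm2a 40.1 ± 18.8 and 66.2 ± 26.6 CPM, and Folr4 299 ± 104 and 212 ± 69.4 CPM (SD, n = 6 and 5), with edgeR adjusted p from 0.140 to 0.444. By edgeR 0 of the 5 genes passed, where 7.23% of all genes did, and 3 of 5 had an unadjusted p under 0.05, as did 2407 of 9921 genes. All 5 overlapped, where 3.1% of all genes did not. These calls depended on post-tamoxifen control 2, and also on the test and the model, as given in the last section. Without control 2 the edgeR adjusted p was 0.000149 for Nrp1 (log2 1.15), 0.0234 for Itm2a (log2 -0.94) and 0.0492 for Gpr83 (log2 -1.07). Without both libraries of low Foxp3, Nrp1 (log2 1.25, edgeR adjusted p = 3.03e-05) and Gpr83 (log2 -0.84, edgeR adjusted p = 0.0465) passed. In the remaining control libraries myeloid markers summed to 155 to 413 CPM, against 15.5 CPM in control 2. The part of myeloid cells in the values was not tested. Control 2 lay within the range of ex-Foxp3 control libraries for Foxp3 (123 against 79.4 to 151 CPM) and Nrp1 (545 against 385 to 649 CPM). It also lay within that range for Ecm1, Itm2a and Folr4, and below it for Gpr83 (33.8 against 40.9 to 63.4 CPM). Ecm1 and Itm2a lay within the labeled control range too. Whether control 2 holds cells of another sorted population was not tested.

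**Figure D2:**
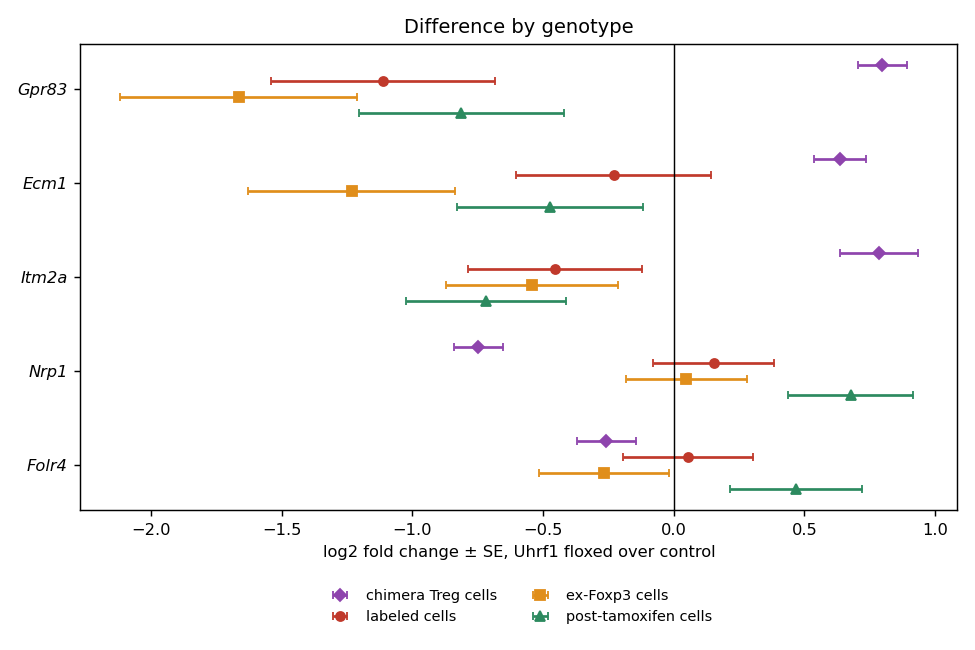
Log2 fold change ± SE (x axis) of Uhrf1 fl/fl or knockout cells over their controls for each gene (y axis), in the chimera and in the 3 pulse-chase populations, with a line at no change. Gpr83, Ecm1 and Itm2a lie right of the line in the chimera, where they were chosen, and left of it in all 3 pulse-chase populations, none of whose values passed the edgeR threshold.

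Set side by side, the difference in Gpr83 was 0.80 in the chimera and -1.11, -1.66 and -0.81 in labeled, ex-Foxp3 and post-tamoxifen cells (log2, fl/fl or knockout over control). Gpr83 was at 54.1 to 82.9 CPM in labeled control cells and 33.8 to 254 CPM in post-tamoxifen control cells. It was at 133 to 176 CPM in chimera control cells. These levels are set across libraries normalised in separate fits. The experiments differ in the Cre, the timing of deletion and the gate, which cannot be told apart, and the difference between them was not tested.

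Loss of Foxp3-GFP was read by comparing ex-Foxp3 with labeled cells of the same genotype. In fl/fl mice Ecm1 fell to 15.8 ± 7.08 CPM in ex-Foxp3 cells, against 40.7 ± 4.43 CPM in labeled cells (SD, n = 6 each), with no ex-Foxp3 library above the lowest labeled library at 33.1 CPM. This was 2.57-fold (log2 -1.36 ± 0.38 SE, edgeR adjusted p = 0.0394). Ecm1 was the only 1 of the 5 to pass in that comparison, where 4.09% of all genes passed and 2.85% had groups without overlap. Gpr83 averaged 15.1 ± 6.90 CPM in ex-Foxp3 and 31.3 ± 6.23 CPM in labeled fl/fl cells (log2 -1.05 ± 0.45 SE, edgeR adjusted p = 0.207), and Folr4 228 ± 63.5 and 345 ± 73.3 CPM (log2 -0.60 ± 0.24 SE, edgeR adjusted p = 0.171). Itm2a differed by log2 -0.14 ± 0.32 and Nrp1 by -0.34 ± 0.22 (SE). With the replicate number as a block, Ecm1 passed and Folr4 passed as well (log2 -0.63, edgeR adjusted p = 0.00290), and 893 genes passed in all, against 406 without the block. The Ecm1 call was lost in 10 of 12 fits that left out 1 library, with edgeR adjusted p from 0.0246 to 0.0895, and without the count filter (0.0624).

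In control mice 0 of the 5 genes passed between ex-Foxp3 and labeled cells by edgeR, 0 had an unadjusted p under 0.05, against 952 of 9921 genes, and all 5 overlapped. Of all genes 0.353% passed and 3.11% had groups without overlap. Gpr83 averaged 48.2 ± 9.01 CPM in ex-Foxp3 and 69.0 ± 10.8 CPM in labeled control cells (log2 -0.50 ± 0.43 SE), Ecm1 37.6 ± 4.79 and 48.5 ± 12.5 CPM, Itm2a 24.7 ± 5.35 and 25.4 ± 8.15 CPM, Nrp1 574 ± 107 and 678 ± 52.8 CPM, and Folr4 275 ± 52.4 and 335 ± 77.2 CPM (SD, n = 5 each), with edgeR adjusted p from 0.769 to 0.988. All 5 log2 differences were below 0, yet for Itm2a the value turned to 0.03 without control numbers 2 and 3. With the replicate number as a block 211 genes passed, against 35 without it, and again 0 of the 5. Whether the genotypes differed in the ex-Foxp3 against labeled change was tested as an interaction. The difference for Ecm1 was log2 -1.001 ± 0.54 (SE, edgeR adjusted p = 0.99996), and 0 of the 5 genes and 0% of all genes passed by edgeR, with 236 genes at an unadjusted p under 0.05 and 0 genes by DESeq2.

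Labeled cells were also set against post-tamoxifen cells, which were Foxp3+ but unlabeled. Nrp1 was higher in labeled cells of both genotypes. In control mice it had 622, 695, 727, 621 and 723 CPM in labeled cells, against 159, 545, 167, 199.8 and 255 CPM in post-tamoxifen cells. No library overlapped, and Nrp1 was 2.52-fold higher in labeled cells (log2 1.33 ± 0.25 SE, edgeR adjusted p = 0.00131). In fl/fl mice Nrp1 had 505 CPM in the lowest, 788 CPM at the median and 871 CPM in the highest labeled library, against 277, 450.0 and 503 CPM in post-tamoxifen cells, 1.75-fold higher in labeled cells (log2 0.81 ± 0.22 SE, edgeR adjusted p = 0.0330). These groups were separated by the gap between 503 and 505 CPM. The bulk level cannot tell fewer Nrp1+ cells from less Nrp1 RNA per cell.

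Itm2a was lower in labeled cells of both genotypes. In control mice it had 29.8, 26.1, 36.1, 15.8 and 19.2 CPM in labeled cells, against 67.2, 22.1, 94.0, 73.4 and 74.2 CPM in post-tamoxifen cells (log2 -1.36 ± 0.33 SE, 2.57-fold, edgeR adjusted p = 0.00738). Only post-tamoxifen control 2 lay within the labeled range. In fl/fl mice Itm2a averaged 18.2 ± 5.84 CPM in labeled and 40.1 ± 18.8 CPM in post-tamoxifen cells (SD, n = 6 each; log2 -1.10 ± 0.31 SE, edgeR adjusted p = 0.0355). Gpr83 fell in fl/fl mice to 31.3 ± 6.23 CPM in labeled cells, against 91.4 ± 55.6 CPM in post-tamoxifen cells (log2 -1.53 ± 0.41 SE, 2.88-fold, edgeR adjusted p = 0.0270), and with the replicate number as a block its adjusted p was 0.0501. In control mice Gpr83 averaged 69.0 ± 10.8 CPM in labeled and 160.3 ± 82.5 CPM in post-tamoxifen cells (log2 -1.23 ± 0.42 SE, edgeR adjusted p = 0.0698).

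Ecm1 averaged 40.7 ± 4.43 CPM in labeled and 63.3 ± 39.8 CPM in post-tamoxifen fl/fl cells, and 48.5 ± 12.5 and 85.7 ± 38.7 CPM in the same cells of control mice (SD). Folr4 averaged 345 ± 73.3 CPM in labeled and 299 ± 104 CPM in post-tamoxifen fl/fl cells, and 335 ± 77.2 and 212 ± 69.4 CPM in control mice (SD). Neither gene passed by edgeR in either genotype. In all, 2 of the 5 genes passed in control mice, where 7.93% of all genes passed and 5.66% had groups without overlap. In fl/fl mice 3 of the 5 passed, where 4.58% passed and 2.47% had groups without overlap. With the replicate number as a block 805 genes passed in fl/fl mice, against 454 without it.

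These calls differ in how far they rest on single libraries. In control mice both calls, Nrp1 (edgeR adjusted p up to 0.00642) and Itm2a (up to 0.0352), held in all 10 fits that left out 1 library, and without the 2 libraries of low Foxp3 Gpr83 (log2 -1.49, edgeR adjusted p = 0.000195) and Ecm1 (log2 -1.05, edgeR adjusted p = 0.0199) passed too. Fitted on the groups compared only, Itm2a kept its call in control mice and Nrp1 did not. Neither passed there in replicate numbers 1 to 3 alone. In fl/fl mice 1 left-out library ended the call in 6 of 12 fits for Gpr83, 9 of 12 for Itm2a and 7 of 12 for Nrp1 (edgeR adjusted p up to 0.105). Of these 3 genes, Nrp1 alone passed in fl/fl mice in the fit of only the groups compared. Without the 2 libraries of low Foxp3 all 3 calls held (edgeR adjusted p = 9.85e-05, 0.000981 and 0.00350). The myeloid, B cell and dendritic cell markers given above reached higher sums in post-tamoxifen than labeled cells, and their part in these differences was not tested. Whether the genotypes differed in the labeled against post-tamoxifen change was tested as an interaction, in which 0 of the 5 genes passed by edgeR (edgeR adjusted p from 0.708 to 0.937) and 0 by DESeq2, and 0.0202% of all genes. Without the 2 libraries of low Foxp3, Nrp1 passed this test (log2 -1.09, edgeR adjusted p = 0.0341): labeled over post-tamoxifen was then log2 0.71 in fl/fl and 1.80 in control mice.

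**Figure D3:**
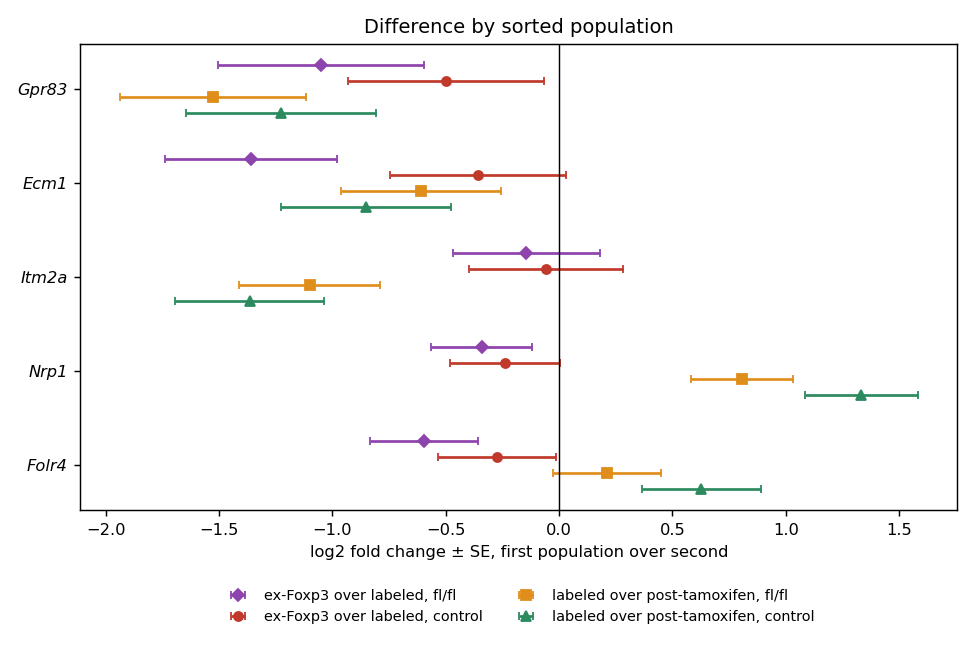
Log2 fold change ± SE (x axis) between sorted populations for each gene (y axis), for ex-Foxp3 over labeled and labeled over post-tamoxifen cells in fl/fl and control mice, with a line at no change. Nrp1 lies right of the line and Gpr83 and Itm2a left of it for labeled over post-tamoxifen cells in both genotypes.

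**Figure D4:**
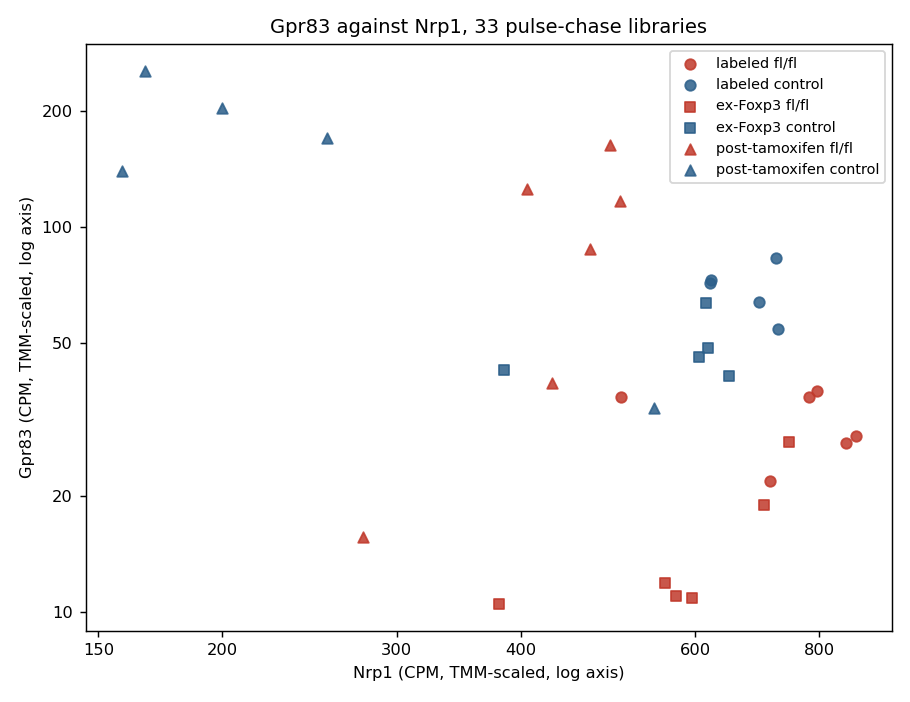
Gpr83 (y axis) against Nrp1 (x axis), both as TMM-scaled CPM on log axes, in the 33 pulse-chase libraries, with fl/fl in red, control in blue and the population as the marker shape. Post-tamoxifen control libraries lie at high Gpr83 and low Nrp1 except control 2, at 33.8 CPM of Gpr83 and 545 CPM of Nrp1, and the 6 ex-Foxp3 fl/fl libraries lie at 10.5 to 27.6 CPM of Gpr83.

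Over the 6 pulse-chase groups the order of mean levels differed between the genes. Gpr83 was highest in post-tamoxifen control (160.3 CPM), then post-tamoxifen fl/fl, labeled control, ex-Foxp3 control, labeled fl/fl and ex-Foxp3 fl/fl cells (15.1 CPM), and of neighbours in that order only ex-Foxp3 control and labeled fl/fl did not overlap. Ecm1 had the same ends (85.7 and 15.8 CPM), and of its neighbours in order only ex-Foxp3 control and ex-Foxp3 fl/fl did not overlap. Itm2a ran from 66.2 CPM in post-tamoxifen control to 16.9 CPM in ex-Foxp3 fl/fl cells with overlap at every step. Nrp1 was lowest where those 3 genes were highest, with 753 CPM in labeled fl/fl and 265 CPM in post-tamoxifen control cells, and Folr4 ran from 345 CPM in labeled fl/fl to 212 CPM in post-tamoxifen control cells, both with overlap at every step.

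Levels also followed the replicate number, a split that was chosen after the values were seen and that the labels do not call a batch. Folr4 averaged 287 CPM in labeled fl/fl numbers 1 to 3 and 403 CPM in numbers 4 and above, and its mean was higher in numbers 4 and above in all 6 groups. The Folr4 ranges of the number sets did not overlap in 5 of the 6 groups, post-tamoxifen control being the exception. In post-tamoxifen fl/fl cells Ecm1 was at 15.6 to 38.3 CPM in numbers 1 to 3 and 89.6 to 111 CPM in numbers 4 and above, and Uhrf1 followed the same division the other way, with 124 to 156 CPM in numbers 1 to 3 and 18.9 to 33.6 CPM in numbers 4 and above. Uhrf1 was divided likewise in labeled fl/fl (69.2 to 88.5 against 10.4 to 19.0 CPM) and labeled control cells (59.3 to 104 against 11.3 to 15.4 CPM). The same held in post-tamoxifen control cells (22.1 to 59.6 against 13.7 to 17.7 CPM), while the Uhrf1 ranges overlapped in ex-Foxp3 cells of both genotypes. Within numbers 4 and above alone, Gpr83 was lower in fl/fl in labeled cells (log2 -1.30, edgeR adjusted p = 0.00663) and in ex-Foxp3 cells (log2 -1.504, edgeR adjusted p = 0.000404). Within numbers 1 to 3 alone the values were log2 -0.97 and -2.02 and did not pass.

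**Figure D5:**
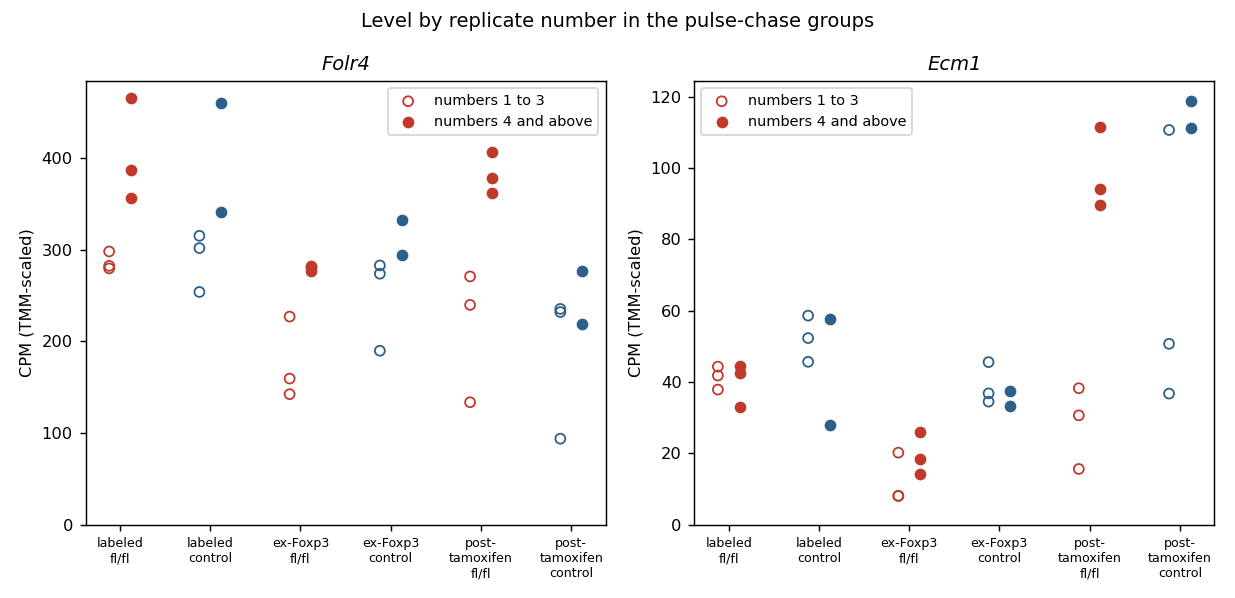
TMM-scaled CPM (y axes, from 0) of Folr4 and Ecm1 in the 6 pulse-chase groups (x axis), with replicate numbers 1 to 3 as open points and numbers 4 and above as filled points, fl/fl in red and control in blue. In post-tamoxifen fl/fl cells the filled Ecm1 points lie at 89.6 to 111 CPM and the open ones at 15.6 to 38.3 CPM.

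The genes most like each of the 5 over the 33 pulse-chase libraries, by Pearson's r of log2 CPM among 7230 genes, are given as a description. The libraries may share mice, which the labels do not tell, and they differ in depth. Gpr83 was most like Igf2r (r = 0.920), Tmem64 (0.899) and Rbm38 (0.891), and Ecm1 most like Igf2r (0.901), Rbm38 (0.897) and Il4ra (0.893), so that Igf2r and Rbm38 stood among the first for both. Itm2a was most like Trpc4ap (0.870), Ndrg3 (0.853) and Slc35d1 (0.840). Nrp1 was most like Nav2 (0.939), Zcchc18 (0.936) and Plcb4 (0.919), and Folr4 most like Myo1e (0.824), Cd3d (0.819) and Wls (0.816). Among the 5, Gpr83 and Ecm1 were most alike (r = 0.870) and Itm2a and Nrp1 had the lowest r (-0.68).

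The partners of these genes were read from fixed lists. Of the Gpr83 list (the ligand precursor Pcsk1n, G proteins and their regulators), 7 genes were tested. Gnaq, a G protein alpha subunit, averaged 97.5 ± 7.01 CPM in labeled and 54.8 ± 15.3 CPM in post-tamoxifen fl/fl cells (log2 0.85 ± 0.21 SE, edgeR adjusted p = 0.0152) and 79.8 ± 9.33 and 26.4 ± 13.95 CPM in control mice (log2 1.499 ± 0.24 SE, edgeR adjusted p = 0.000260), the 1 gene of the list that passed in each. Of all genes, 4.58% passed between labeled and post-tamoxifen cells in fl/fl and 7.93% in control mice. In post-tamoxifen cells Gnaq (log2 0.94, edgeR adjusted p = 0.0141) and Gnas (log2 0.24, edgeR adjusted p = 0.0475) were higher in fl/fl than control, and 0 were lower, where 7.23% of all genes passed. Rgs1, which dampens G protein signals, fell in ex-Foxp3 against labeled fl/fl cells (log2 -1.16 ± 0.22 SE, edgeR adjusted p = 0.00208), where 4.09% of all genes passed.

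Of the neuropilin partners, plexins and semaphorins, 20 were tested. Plxnd1, a semaphorin receptor, passed in all 4 comparisons of populations. It averaged 55.7 ± 9.70 CPM in ex-Foxp3 and 140 ± 17.9 CPM in labeled fl/fl cells (log2 -1.33 ± 0.15 SE, edgeR adjusted p = 1.45e-07), and 67.1 ± 19.5 and 134 ± 12.4 CPM in control mice (log2 -0.99 ± 0.16 SE, edgeR adjusted p = 0.00110). It was higher in labeled than post-tamoxifen cells of fl/fl (log2 0.76, edgeR adjusted p = 0.00166) and control mice (log2 0.83, edgeR adjusted p = 0.000860). Tgfbr2, a TGF-beta receptor chain, was higher in ex-Foxp3 than labeled cells of fl/fl (log2 0.65, edgeR adjusted p = 1.26e-05) and control mice (log2 0.42, edgeR adjusted p = 0.0458). Plxnc1, the receptor of Sema7a, was higher in fl/fl than control post-tamoxifen cells (83.9 ± 20.02 against 40.4 ± 9.39 CPM, log2 1.003, edgeR adjusted p = 0.000188). Tgfbr2 was lower in fl/fl there (log2 -0.30, edgeR adjusted p = 0.0475). The list thus had 1 gene higher and 1 lower of 20, where 7.23% of all genes passed. Nrp2, the other neuropilin, was nearly absent, at 0.238 ± 0.584 CPM in labeled and 4.45 ± 3.47 CPM in post-tamoxifen fl/fl cells (log2 -3.92 ± 0.97 SE, edgeR adjusted p = 0.0116). In ex-Foxp3 against labeled fl/fl cells the list had 1 gene higher and 4 lower (median log2 -0.12, all genes 0.01; 4.09% of all genes passed). In control mice it had 1 higher and 1 lower (median -0.065, all genes -0.00056; 0.353% of all genes passed).

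For Folr4, 15 genes of folate transport and one-carbon metabolism were tested, and Ggh, which trims folate polyglutamates, was the only one that passed: it was higher in labeled than post-tamoxifen cells of fl/fl (log2 0.85, edgeR adjusted p = 0.0492) and control mice (log2 0.94, edgeR adjusted p = 0.0329). Of all genes, 4.58% passed in that comparison in fl/fl and 7.93% in control mice. The other folate receptors took almost no reads, since Folr1 had at most 3 counts and Folr2 was at 0 in all 41 libraries. Of the Ecm1 list (integrins, S1P receptors, Il2rb and Klf2), 8 were tested. Klf2, a factor of resting T cells, was higher in ex-Foxp3 than labeled fl/fl cells (log2 0.57, edgeR adjusted p = 0.0307), where 4.09% of all genes passed. Itgav, an integrin alpha chain, was higher in labeled than post-tamoxifen cells of fl/fl (log2 0.50, edgeR adjusted p = 0.0130) and control mice (log2 0.44, edgeR adjusted p = 0.0392), and in control mice S1pr1, through which T cells leave lymph nodes (log2 -0.68, edgeR adjusted p = 0.0198) and Klf2, which drives S1pr1 transcription (log2 -0.55, edgeR adjusted p = 0.0408), were lower in labeled cells. The shares of all genes between labeled and post-tamoxifen cells were the 4.58% and 7.93% given above, here and for Gata3 and Itm2c. Of the Itm2 relatives and Gata3, which is upstream of Itm2a, 4 were tested, and Gata3 was higher in labeled cells of both genotypes (log2 0.51 in fl/fl and 0.58 in control mice, edgeR adjusted p = 0.00602 and 0.00276), where Itm2a was lower. Itm2c, a relative of Itm2a, was higher in labeled than post-tamoxifen control cells (173.8 ± 32.1 against 100.1 ± 13.04 CPM, log2 0.77, edgeR adjusted p = 0.000643), lower in ex-Foxp3 than labeled fl/fl cells (log2 -0.48, edgeR adjusted p = 0.0247) and higher in fl/fl than control post-tamoxifen cells (log2 0.46, edgeR adjusted p = 0.0348).

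Of 22 other Treg surface receptors, 11 were lower and 1 higher in ex-Foxp3 than labeled fl/fl cells (median log2 -0.76, all genes 0.01; 4.09% of all genes passed). In control mice 2 were lower and 0 higher (median -0.53, all genes -0.00056; 0.353% of all genes passed). Il2ra, the high-affinity IL-2 receptor chain, averaged 110 ± 17.1 CPM in ex-Foxp3 and 459 ± 55.7 CPM in labeled fl/fl cells (log2 -2.05 ± 0.23 SE, edgeR adjusted p = 2.66e-06). Lrrc32, which holds latent TGF-beta at the surface, fell by log2 -2.27 in the same comparison (edgeR adjusted p = 0.000216). Against post-tamoxifen cells, 10 were higher and 1 lower in labeled cells of control mice (median 0.49, all genes 0.0028; 7.93% of all genes passed). In fl/fl mice 3 were higher and 1 lower (median 0.28, all genes -0.02; 4.58% of all genes passed). In post-tamoxifen cells 9 were higher and 0 lower in fl/fl than control (median 0.62, all genes 0.01; 7.23% of all genes passed), among them Icos, a costimulatory receptor (log2 1.37, edgeR adjusted p = 0.00105), Entpd1, an ectonucleotidase (log2 1.02, edgeR adjusted p = 0.00143), and Itgae, the CD103 integrin chain (log2 2.46, edgeR adjusted p = 0.00402). Tnfrsf1b, a TNF receptor that costimulates Treg cells, was higher in labeled than post-tamoxifen cells of fl/fl (389 ± 24.5 against 243 ± 44.1 CPM, log2 0.68, edgeR adjusted p = 0.00523) and control mice (297 ± 30.1 against 140.3 ± 47.4 CPM, log2 1.04, edgeR adjusted p = 0.000172). Il1rl1, the IL-33 receptor, averaged 183 ± 42.7 CPM in labeled and 21.4 ± 23.4 CPM in post-tamoxifen control cells (log2 2.99 ± 0.50 SE, edgeR adjusted p = 0.000537). The myeloid, B cell and dendritic cell markers given above reached higher sums in post-tamoxifen cells here too, and their part in these list values was not tested. In labeled and ex-Foxp3 cells 0 of the 22 passed between genotypes by edgeR. The most abundant of the tested receptors, Il2rb, averaged 669 ± 87.7 CPM in labeled fl/fl and 527 ± 63.9 CPM in labeled control cells (log2 0.35, edgeR adjusted p = 0.511).

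Of 9 transcription factors of thymus-derived Treg cells, Bach2, a repressor of effector genes, was lower in fl/fl than control in ex-Foxp3 (76.1 ± 9.90 against 162 ± 33.1 CPM, log2 -1.09, edgeR adjusted p = 0.0449) and post-tamoxifen cells (146 ± 65.3 against 297 ± 82.5 CPM, log2 -1.02, edgeR adjusted p = 0.00678). Bach2 averaged 60.2 ± 11.7 CPM in labeled fl/fl and 129 ± 19.4 CPM in labeled control cells (SD), where 0 of the 9 and 0.0101% of all genes passed. The list had 0 genes higher and 1 lower in ex-Foxp3 cells, where 0.181% of all genes passed. For post-tamoxifen cells it had 1 higher and 2 lower, where 7.23% passed. Runx3 was the higher one (log2 0.80, edgeR adjusted p = 0.0391) and Foxo1 the other lower one (log2 -0.43, edgeR adjusted p = 0.0335). Bach2 was also lower, and Ikzf2 (Helios) higher, in labeled than post-tamoxifen cells of fl/fl (Bach2 log2 -1.27 and Ikzf2 0.72) and control mice (Bach2 log2 -1.19 and Ikzf2 0.84), with edgeR adjusted p from 0.00226 to 0.0467. The list there had 1 gene higher and 1 lower in fl/fl mice, where 4.58% of all genes passed. It had 1 higher and 2 lower in control mice, where 7.93% passed. Satb1 was the other lower one in control mice (log2 -1.59, edgeR adjusted p = 0.00270). In the chimera, where 2.41% of all genes passed by edgeR, counts of the lists were as follows: of the 22 surface receptors 1 was higher and 3 lower, of 19 neuropilin partners 0 and 1, of 15 folate genes 0 and 0, of 7 Ecm1 partners 2 and 2, of 4 Itm2 relatives and Gata3 0 and 1, of 7 Gpr83 partners 0 and 1, and of 9 transcription factors 1 and 0.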

How the data were processed

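The deposited file gives unnormalized counts, as whole numbers, for each gene and library. AllPrep DNA/RNA Micro was used for RNA and SMARTer Stranded Total RNA-Seq v2 for the libraries, per the labels' protocols. Reads were handled with bcl2fastq 2.17.1.14 and TopHat2 2.1.0 against mm10 (GRCm38), per the submitters' processing notes; annotation, strand and counting settings are not given in the sources used here, so overlapping antisense reads cannot be told apart. All pairs of libraries within groups differed by more than counting noise (chi-square over its degrees of freedom at least 2.60).

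Genes were taken by symbol. The 5 genes and the lists were chosen with earlier results of these data known. Others were named by rule, though some results are not reported here: Uhrf1 and Foxp3 as checks, from each list and comparison up to 3 genes that passed with the smallest p, otherwise the most abundant tested, and per gene the 3 of highest Pearson's r among genes averaging 4 or more in log2 CPM. Tests used edgeR 4.0.16 (R 4.3.3): TMM, the default count filter by group, robust quasi-likelihood fits, 2-sided F-tests and Benjamini-Hochberg adjustment over all genes tested, threshold 0.05. The chimera fit held 8 libraries and 9569 genes, the pulse-chase fit 33 libraries and 9921 genes; edgeR's common BCV, the replicate variation beyond counting, was 0.134 in the chimera and 0.215 in the pulse-chase cells. CPM are of TMM-scaled totals; marker sums and Y-linked sums are CPM of the raw total. Exon lengths came from GENCODE vM21 and promoter windows from RefSeq (GRCm38.p6), where all 5 genes matched, Folr4 as Izumo1r.

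The main tests used the group alone and did not pair libraries by replicate number, also between populations. Deviations of every pair of equal number correlated over 0.1 in ex-Foxp3 with labeled cells (control 0.14 to 0.30, fl/fl 0.14 to 0.36). They did so too in labeled with post-tamoxifen fl/fl cells (0.24 to 0.44). Pairing entered only through the replicate block, an alternative. Alternatives were RLE factors, no or a stricter count filter (CPM over 2 in 5 libraries, 4 in the chimera), DESeq2 1.42.0, a replicate block, only the groups compared, and leaving out each library; sets left out for low Foxp3, Y-linked reads or B cell transcripts and the split by number were added after the data were seen. Figures were drawn with matplotlib 3.10.9.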

Additional observations from a re-analysis of the deposited data

Results flagged for a closer look

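Within groups, 3 libraries lay far from the rest of their group for 1 of the 5 genes, a gap that chance gives in about 1 of 20 groups; each of the 5 genes was examined in 8 groups, so some such gaps arise by chance. Gpr83 was at 316 CPM in chimeric knockout 1, where the other 3 knockout libraries had 248 to 253 CPM. Nrp1 was at 385 CPM in ex-Foxp3 control 1, below 605 to 649 CPM in the others, and at 545 CPM in post-tamoxifen control 2, above 159 to 255 CPM in the others. Post-tamoxifen control 2 also had the lowest Foxp3, Gpr83, Ecm1 and Itm2a of its group, and 15.5 CPM of myeloid markers against 155 to 413 CPM. Its Foxp3, Nrp1, Ecm1, Itm2a and Folr4 lay within the range of ex-Foxp3 control libraries, as given above.

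In the pulse-chase cells, 3 differences by genotype ran against the chimera with no overlap between groups in either experiment: Gpr83 in labeled cells (log2 -1.11) and ex-Foxp3 cells (log2 -1.66), where the chimera had 0.80, and Ecm1 in ex-Foxp3 cells (log2 -1.23), where the chimera had 0.64. The difference between the experiments was not tested, and the genes were chosen on the chimera values.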

How the results depend on the processing

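The 45 pulse-chase log2 fold changes of the 5 genes gave 1030 values under the alternatives, of which 930 kept direction and side of the threshold, 43 lost a call, 31 gained one and 26 changed sign. The chimera values stayed within 1 SD between replicates in all 14 alternatives. The cause of each change was not tested unless the alternative's own construction shows it.

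All-gene counts moved with the same settings, so nothing is read about the 5 genes from the counts below. With the block, 229 genes passed in ex-Foxp3 and 1650 in post-tamoxifen cells by genotype, and 893 in ex-Foxp3 against labeled fl/fl cells. In numbers 4 and above alone 179 genes passed in that last comparison. In numbers 1 to 3 alone, labeled against post-tamoxifen cells gave 125 genes in control and 78 in fl/fl mice. Counts of the 5 genes that passed moved as follows. In labeled cells by genotype, 1 passed with only the groups compared and 1 in numbers 4 and above alone, against 0. In ex-Foxp3 cells by genotype, 1 passed by DESeq2, 1 with the replicate block, 2 with only the groups compared and 1 in numbers 4 and above, against 0. In post-tamoxifen cells by genotype, 1 passed by DESeq2, 1 with the block, 2 without post-tamoxifen control 2 and fl/fl 3, 1 without control numbers 2 and 3, 1 in numbers 1 to 3 and 2 in numbers 4 and above, and 0 to 3 with 1 library left out, against 0. For ex-Foxp3 against labeled fl/fl cells, 0 passed without the count filter, 2 with the block, 2 with only the groups compared, 2 in numbers 4 and above, and 0 to 1 with 1 library left out, against 1. For labeled against post-tamoxifen cells, control mice gave 1 with only the groups compared, 4 without both libraries of low Foxp3, 0 in numbers 1 to 3 and 5 in numbers 4 and above, against 2, and fl/fl mice gave 1 with only the groups compared, 0 in numbers 1 to 3, 4 in numbers 4 and above and 0 to 2 with 1 library left out, against 3. The interaction of that change had 1 without both libraries of low Foxp3, against 0.

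Signs changed only for values near 0 or in the split by number. For labeled fl/fl over control, Folr4 was log2 -0.040 with the block, -0.074 without control numbers 2 and 3, -0.016 in numbers 1 to 3 and -0.043 to 0.19 with 1 library left out, against 0.054; Nrp1 was -0.021 in numbers 1 to 3, and Ecm1 0.020 and Itm2a 0.13 in numbers 4 and above. For ex-Foxp3 fl/fl over control, Nrp1 was -0.029 with the block, -0.093 in numbers 1 to 3 and -0.067 to 0.15 with 1 library left out, against 0.048. For ex-Foxp3 over labeled cells, Itm2a was 0.033 without control numbers 2 and 3, 0.17 in numbers 4 and above and -0.20 to 0.10 with 1 library left out in control mice, and 0.052 in numbers 1 to 3 in fl/fl mice; its interaction was 0.17 in numbers 1 to 3 and -0.26 to 0.051 with 1 library left out. For labeled over post-tamoxifen fl/fl cells, Ecm1 was 0.56 in numbers 1 to 3, against -0.61, and the Gpr83 interaction was 0.58, against -0.30.

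All-gene counts moved more: by genotype, 95 to 396 in the chimera (231 as reported), 0 to 149 for labeled cells (1), 5 to 229 for ex-Foxp3 cells (18) and 147 to 1650 for post-tamoxifen cells (717), 4 to 211 and 179 to 893 for ex-Foxp3 against labeled control (35) and fl/fl (406), 125 to 1280 and 78 to 805 for labeled against post-tamoxifen control (787) and fl/fl (454), and 0 to 16 for its interaction (2). Where not every pair of equal number correlated over 0.1, the block gave 149 genes for labeled cells, 229 for ex-Foxp3 cells and 1650 for post-tamoxifen cells by genotype, and 1280 in labeled against post-tamoxifen control cells. Pair correlations there were 0.08 to 0.29, 0.03 to 0.16, -0.08 to 0.24 and -0.02 to 0.25, and -0.09 to 0.02 in the chimera; 2 of 5, 1 of 5, 2 of 5, 3 of 5 and 0 of 4 numbers correlated best with their own. Depth limits the lowest levels, such as 7.57 CPM of Itm2a in labeled fl/fl 4 and 8.04 CPM of Ecm1 in the lowest ex-Foxp3 fl/fl library.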
